A study of Homo sapiens with 6 samples.

Results

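The genes described here encode enzymes and regulators of cholesterol and fatty acid synthesis, measured in HT1080, an established human fibrosarcoma cell line. The list holds 33 genes, chosen by name with earlier results of these data known. Its shares beside those of all genes are therefore a description only. The genes encode enzymes on the route from acetoacetyl-CoA to cholesterol, the sterol-sensing regulators of the pathway, enzymes of fatty acid synthesis and the cholesterol transporter NPC1. A probe set, the unit of the array, was taken where the platform annotation gave it a single symbol from the list. That gave 56 probe sets of 29 genes, out of 11963 singly named genes and 22283 probe sets on the array. Of the 29 genes, 27 passed a filter on dim signal and 2 (MVD and TM7SF2) did not. FDFT1, CYP51A1, FADS1 and ACSL3 had no singly named probe set and were not analysed here.

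Total RNA had been measured on 6 single-channel arrays in 3 groups of 2. One group carried the pGUS vector expressing GFP together with an siRNA against MT1-MMP, a membrane-anchored collagenase encoded by MMP14. Another carried the same vector with GFP and an siRNA against integrin alpha3, a laminin-binding receptor subunit encoded by ITGA3. The mock group, titled GUS, carried the vector with GFP alone, so no group had an siRNA against an unrelated target. Nothing in the labels tells whether paired arrays stem from separate cultures or clones. Each p-value therefore reflects array-to-array spread alone, possibly technical, and the number of arrays limits the precision.

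The labels were checked against the targets. MMP14 had signals of 812 and 717 on the MT1-MMP siRNA arrays, 999 and 1804 on the alpha3 siRNA arrays, and 1971 and 3064 in mock cells. ITGA3 had 148 and 347 with alpha3 siRNA, 1481 and 1634 with MT1-MMP siRNA, and 1139 and 1290 in mock cells. On these probe sets each target was lowest with its own siRNA. MMP14 also lay below mock with alpha3 siRNA, so that group is not one with MMP14 unchanged. On another MMP14 probe set the siRNA groups overlapped, at 728.5 and 536 with MT1-MMP siRNA against 690.6 and 1276 with alpha3 siRNA. Of 10 mesenchymal markers 9 lay above the filter, with summed signals from 55711 to 68277 with MT1-MMP siRNA, from 40252 to 42211 with alpha3 siRNA and from 39081 to 46555 in mock cells. Of 5 smooth muscle and pericyte markers ACTA2 alone passed, and the list summed to between 862 and 1070.4 with MT1-MMP siRNA, between 328 and 544 with alpha3 siRNA and between 503 and 673 in mock cells. Both lists were thus highest with MT1-MMP siRNA, and their part in the results was not tested. None of 8 epithelial markers passed, at most 93.1. Of 6 adipocyte markers CIDEC and LPL passed while ADIPOQ, PLIN1 and LEP did not, and of 6 hepatocyte markers CYP3A4 and TTR passed while ALB did not. PECAM1 of 5 endothelial, CD3E of 5 measured leukocyte and HBB of 2 measured erythroid markers passed. On any array each of these last 6 lists summed to between 95.9 and 291. Median signals lay between 72.9 and 83.1, and the 18 spiked hybridisation controls were brighter with MT1-MMP siRNA, at median folds of 2.30 and 1.29 over the mock mean, than with alpha3 siRNA (0.812 and 0.841) or in mock cells (0.927 and 1.07). The part of the spikes in the results was not tested either.

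Cholesterol is built from acetyl-CoA through mevalonate, farnesyl diphosphate, squalene and lanosterol. The genes of this route are transcribed under the sterol regulatory element-binding proteins SREBP-1 and SREBP-2, products of SREBF1 and SREBF2. When sterols are low, SCAP escorts the SREBPs from the endoplasmic reticulum to the Golgi, where proteases release their active part. When sterols are high, INSIG1 and INSIG2 hold SCAP back. SREBP-1 is best known for the fatty acid genes, SREBP-2 for the sterol genes, and INSIG1 and SREBF2 are themselves SREBP targets. On promoters the SREBPs usually act beside NF-Y, which binds a CCAAT box, and Sp1.

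The promoters of 4 genes that the values below turn on are shown because they carry these elements in different makeup. Each runs from 250 bases before to 50 bases after the start site, from RefSeq on GRCh38.p14, on the strand of the gene. Capitals mark matches to the sterol regulatory element (searched as TCACNCCAC), the E-box CACGTG and the NF-Y box CCAAT, on either strand. No matches of different motifs overlapped, and Sp1 boxes (GGGCGG) are left in lower case.
SREBF2, chr22:41832855-41833154, plus strand: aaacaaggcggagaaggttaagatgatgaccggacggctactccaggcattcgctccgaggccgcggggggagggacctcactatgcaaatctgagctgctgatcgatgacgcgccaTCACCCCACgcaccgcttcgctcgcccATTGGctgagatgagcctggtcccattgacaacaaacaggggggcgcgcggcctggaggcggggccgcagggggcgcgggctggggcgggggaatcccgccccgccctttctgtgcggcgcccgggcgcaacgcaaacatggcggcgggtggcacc
INSIG1, chr7:155297628-155297927, plus strand: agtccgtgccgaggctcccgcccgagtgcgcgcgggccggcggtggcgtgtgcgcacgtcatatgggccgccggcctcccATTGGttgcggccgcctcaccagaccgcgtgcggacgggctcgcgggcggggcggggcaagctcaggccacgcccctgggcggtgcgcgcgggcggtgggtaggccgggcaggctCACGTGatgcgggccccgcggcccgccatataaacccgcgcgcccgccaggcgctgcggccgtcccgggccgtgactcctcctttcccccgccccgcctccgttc
MSMO1, chr4:165327419-165327718, plus strand: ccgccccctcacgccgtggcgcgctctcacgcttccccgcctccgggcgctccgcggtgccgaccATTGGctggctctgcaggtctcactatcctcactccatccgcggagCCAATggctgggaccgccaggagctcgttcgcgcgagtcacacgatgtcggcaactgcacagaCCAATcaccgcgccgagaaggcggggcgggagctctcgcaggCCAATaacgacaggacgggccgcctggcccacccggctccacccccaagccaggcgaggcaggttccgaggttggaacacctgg
SCD, chr10:100346983-100347282, plus strand: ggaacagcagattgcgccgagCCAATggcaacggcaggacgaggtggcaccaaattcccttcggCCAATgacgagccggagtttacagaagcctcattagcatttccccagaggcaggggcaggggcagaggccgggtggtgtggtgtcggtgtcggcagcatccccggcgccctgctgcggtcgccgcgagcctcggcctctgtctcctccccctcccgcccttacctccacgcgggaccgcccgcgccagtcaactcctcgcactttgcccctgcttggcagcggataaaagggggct

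The SREBF2 promoter held the sterol regulatory element 133 bases before the start site and an NF-Y box at 106 bases. INSIG1 held an E-box 55 bases before the start site, 1 NF-Y box and 6 Sp1 boxes. MSMO1 held 4 NF-Y boxes and SCD 2. Elsewhere in the list NSDHL and MVK held 5 each, and INSIG2 and SREBF1 held 0. Whether box counts go with the fold changes was not tested. Over the 39 promoters supplied for 29 genes of the list, 64.1% held an NF-Y box, against 34.6% of all 34796 supplied promoters; ACAT2, FDFT1, SQLE and FASN had no entry. Sp1 boxes were in 87.2% of them against 44.9%, E-boxes in 15.4% against 7.20%, and the sterol regulatory element in 2.56% against 1.12%. The 2.56% is 1 promoter of the 39, that of SREBF2, so it shows no difference from all promoters. The sequences are a description of these windows and say nothing of which factor was bound in these cells.

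Signals below are on a linear scale. Log2 fold changes are differences of group means of log2(signal + 32), fitted with limma to 8045 genes on all 6 arrays with Benjamini-Hochberg adjustment, and a gene was called at an adjusted p under 0.05. The offset understates changes of dim genes. A lower signal in such bulk RNA can come from fewer cells that express the gene or from less RNA per cell, which cannot be told apart.

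**Figure D1:**
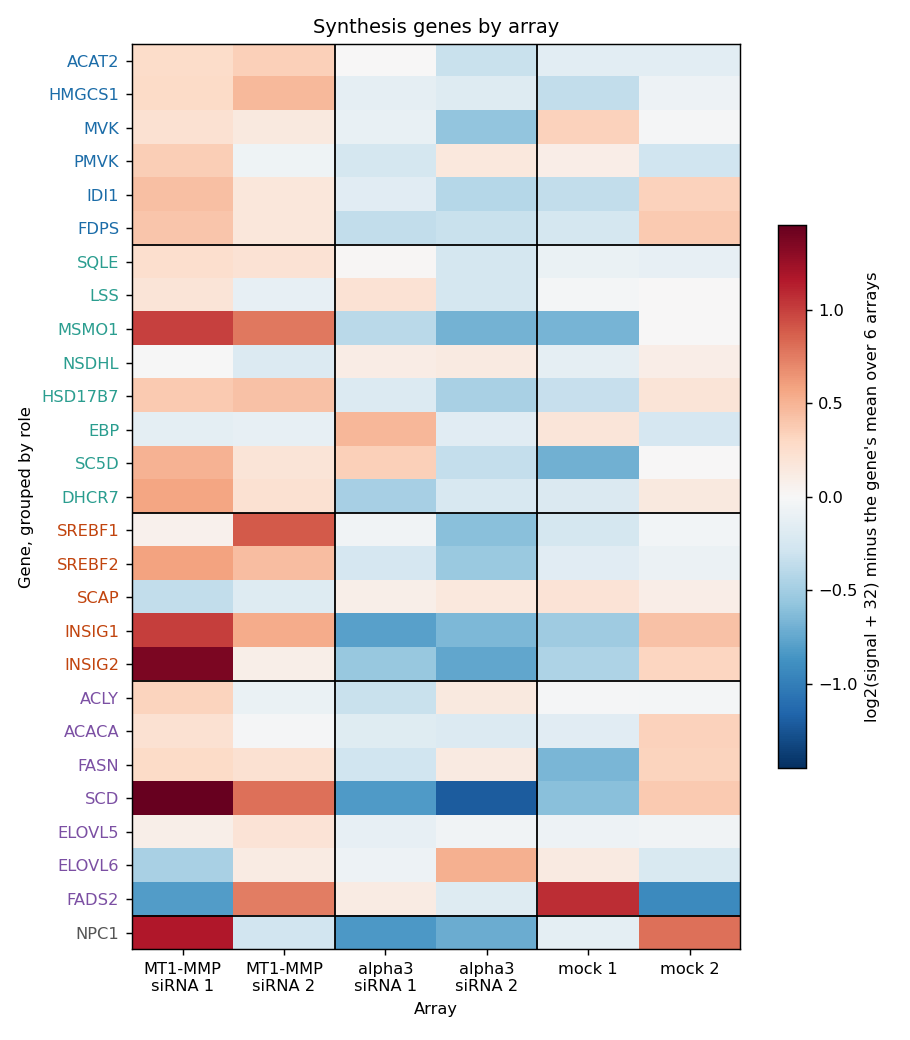
Heat map of the 27 genes above the filter (rows, grouped by role and coloured by it) on the 6 arrays (columns); colour is log2(signal + 32) minus the gene's mean over the 6 arrays. MSMO1, SCD, INSIG1 and SREBF2 are above their mean on both MT1-MMP siRNA arrays and below it on both alpha3 siRNA arrays.

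Most of the 27 genes had their highest group mean with MT1-MMP siRNA and their lowest with alpha3 siRNA. That order (MT1-MMP siRNA, then mock, then alpha3 siRNA) held for 18 of the 27, or 66.7%, against 26.2% of all 8045 genes. Relative to each gene's mean over the 6 arrays, the median of the 27 was 0.28 and 0.19 on the MT1-MMP siRNA arrays, -0.17 and -0.25 on the alpha3 siRNA arrays, and -0.16 and 0.01 on the mock arrays. MT1-MMP siRNA replicate 1 was the highest array for 13 genes, and alpha3 siRNA replicate 2 the lowest for 12. The arrays of each pair differed over these genes. Mock replicate 2 was above mock replicate 1 for 19 of the 27 genes (70.4%), against 49.7% of all genes. The median difference was 0.24 on the log2 scale. Both siRNA pairs leaned the other way, with a median of -0.20 for replicate 2 minus replicate 1 in each. Replicate 2 was higher for 33.3% of the 27 in the MT1-MMP siRNA pair, against 51.4% of all genes. In the alpha3 siRNA pair it was higher for 40.7%, against 51.2%. The heat map of genes by array shows this within-mock difference for MSMO1, INSIG1, SCD, FASN and NPC1.

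The first question of the design is what the siRNA against MT1-MMP did to these genes relative to mock. Of the 27 genes 22 had a log2 fold change above 0 and 5 below, with a median of 0.31, against a median of 0.00 over all genes, of which 50.3% lay above 0. No gene of the list passed the threshold in limma (lowest adjusted p = 0.164), nor did any of the 8045 genes (0.00%). At an unadjusted p under 0.05, 6 of the 27 were higher and 0 lower, against 6.76% of all genes higher and 7.66% lower. Without any overlap between siRNA and mock arrays, 12 of the 27 were higher and 1 was lower, against 24.6% and 25.3% of all genes. The median of the 27 was 0.22 against mock replicate 2 alone and 0.54 against mock replicate 1 alone, and for 12 of the 27 genes the sign turned when some array was left out.

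Among the regulators, both SREBF genes and both INSIG genes had higher means with MT1-MMP siRNA than in mock cells, and SCAP had a lower one. SREBF2 had signals of 663 and 602 with MT1-MMP siRNA, against 383 and 404 in mock cells. Both pairs were tight and lay apart, with SREBF2 means of 632 ± 42.9 and 393 ± 14.4 (SD, n = 2 each). This gave a log2 difference of 0.64 with an SE of 0.20 (limma adjusted p = 0.220), while the second SREBF2 probe set stood at 0.80. SREBF1 was dimmer, at 109 and 216 against 80.6 and 98.6 in mock cells (0.62, SE 0.32, adjusted p = 0.407). Dropping replicate 2 of the siRNA pair left it at 0.21, and dropping replicate 1 at 1.03.

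INSIG1 had 1473 and 1063 with MT1-MMP siRNA, against 493 and 976 in mock cells. The groups did not overlap, but the higher mock array came close to the lower siRNA array. INSIG1 stood at 0.82 (SE 0.31, limma adjusted p = 0.289), at 0.35 once mock replicate 1 was dropped and at 1.29 once mock replicate 2 was. The INSIG1 probe sets, 3 in number, lay between 0.82 and 1.02. INSIG2, its relative with the same role, had 669 and 257 against 167 and 305 in mock cells, so the groups overlapped (0.80, adjusted p = 0.407), and 0.16 remained when siRNA replicate 1 was dropped. SCAP, the escort of the SREBPs, had 252 and 287 with MT1-MMP siRNA, against 384 and 356 in mock cells, and was the only 1 of the 27 genes whose arrays lay lower without overlap (-0.42, SE 0.19, adjusted p = 0.353).

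**Figure D2:**
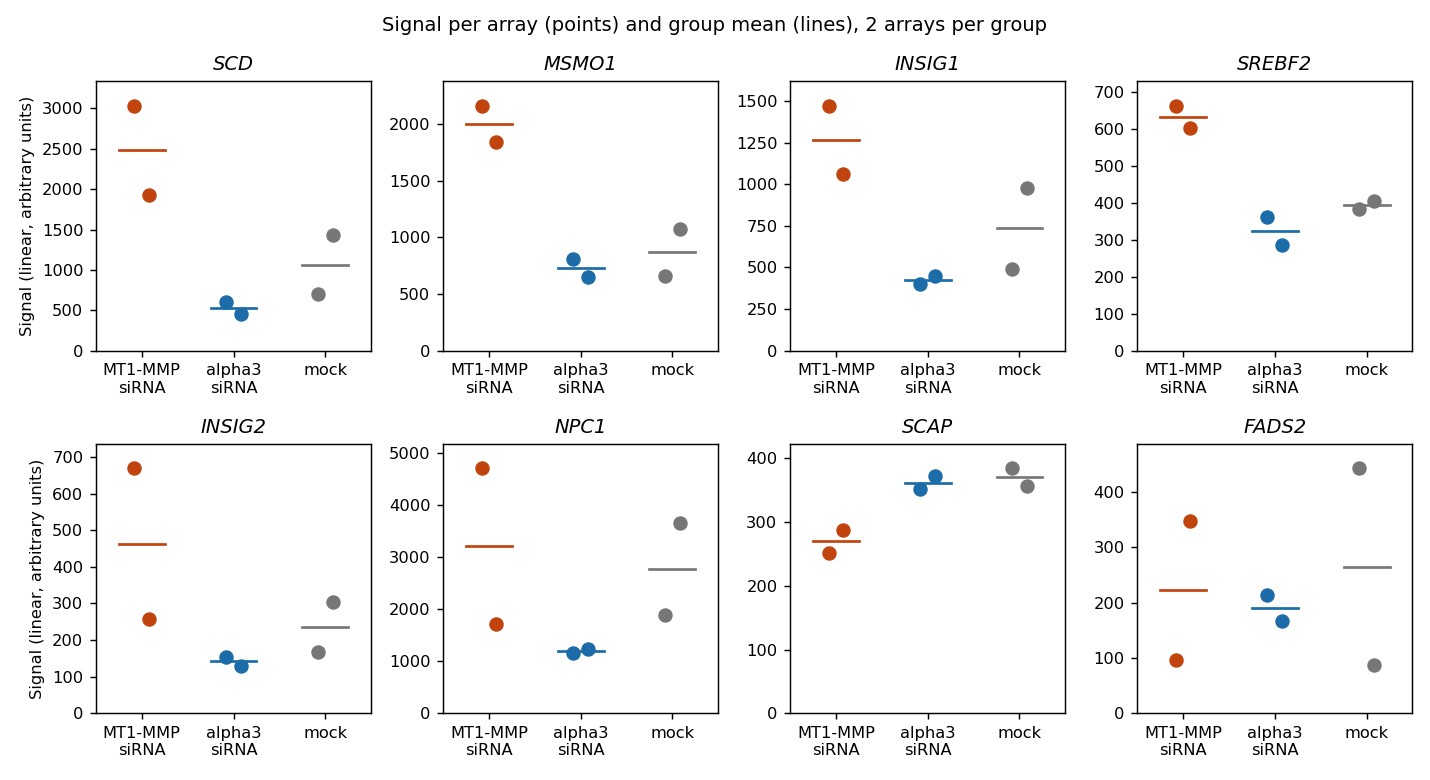
Signal (linear scale, from 0) of 8 genes on each array: points are the 2 arrays of a group and lines the group mean. SCD, MSMO1, INSIG1 and SREBF2 have both MT1-MMP siRNA arrays above all others, SCAP has both below all others, and INSIG2, NPC1 and FADS2 differ widely within a pair.

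All 6 measured enzymes of the mevalonate steps had log2 fold changes above 0 with MT1-MMP siRNA, with a median of 0.28. The sign turned for MVK without mock replicate 2 (-0.15), and for IDI1 (-0.03) and FDPS (-0.10) without mock replicate 1. HMGCS1, which makes HMG-CoA, had 396 and 458 against 243 and 303 in mock cells (0.59, SE 0.20, limma adjusted p = 0.252). Its second probe set stood at 0.48. ACAT2, the cytosolic acetoacetyl-CoA thiolase, had 897 and 942 against 659 and 662. On the brightest probe sets these were the only 2 of the 6 whose groups did not overlap. The isomerase IDI1 had 1299.7 and 1074 against 739 and 1210.0, and farnesyl diphosphate synthase FDPS 1253 and 1057 against 781 and 1238. In both, mock replicate 2 lay within the range of the siRNA pair, but the second probe set of IDI1 did not overlap, at 1082 and 941 with MT1-MMP siRNA against 633 and 756 in mock cells (0.52). The kinases MVK (567 and 534 against 614 and 475 in mock cells) and PMVK (293 and 209.5 against 238 and 174) overlapped too. A dimmer probe set of MVK stood at 1.28 where the brightest was at 0.02, with signals of 187 and 181 with MT1-MMP siRNA against 24.5 and 108 in mock cells, without overlap. The 24.5 of mock replicate 1 lay under the filter level of 47.5, so the size of 1.28 is uncertain. MVD, the decarboxylase of this route, was below the filter at 36.4 and 58.8 against 24.6 and 66.0.

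Of the 8 measured enzymes from squalene to cholesterol, 6 lay above 0 with MT1-MMP siRNA. On the brightest probe sets 5 of them did not overlap with mock, against 24.6% of all genes. MSMO1, the oxidase that starts the removal of the C4 methyl groups of sterols, had 2162 and 1842 with MT1-MMP siRNA, against 656 and 1077 in mock cells. Both siRNA arrays were well above both mock arrays, with means of 2002 ± 226 and 867 ± 298 (SD, n = 2 each), and MSMO1 stood at 1.21 (SE 0.25, limma adjusted p = 0.164). Against mock replicate 2 alone MSMO1 stood at 0.87, and against mock replicate 1 alone at 1.56. HSD17B7, a ketoreductase of the same demethylation, had 317 and 327 against 180.0 and 272 (0.48, adjusted p = 0.382), and was 0.22 without mock replicate 1. NSDHL, the dehydrogenase that acts between them, overlapped with mock, at 228 and 194 against 205 and 247.

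SC5D, the lathosterol desaturase, had 498 and 394 with MT1-MMP siRNA against 198 and 344 in mock cells (0.69, adjusted p = 0.356). Against mock replicate 2 alone SC5D stood at 0.34, and against mock replicate 1 alone at 1.05. DHCR7, the reductase of the last step to cholesterol, had 874 and 682 against 497 and 640.3. The second DHCR7 probe set overlapped with mock, at 563 and 518 against 399 and 552 (0.19). Squalene epoxidase SQLE had 1138 and 1115 against 895 and 881. The 2 other probe sets of SQLE stood at 0.22 and -0.05, so its groups were apart on the brightest probe set only. Lanosterol synthase LSS (596 and 476 against 507 and 519.6 in mock cells) and the isomerase EBP (713 and 721 against 896 and 661) overlapped with mock. TM7SF2, a sterol reductase, was below the filter, at 23.3 and 42.9 against 26.0 and 31.7.

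The 7 measured fatty acid genes differed among themselves, with a median of 0.14 and a range from -0.12 to 1.24. SCD, the desaturase that makes oleate from stearate, had 3035 and 1924 with MT1-MMP siRNA, against 703 and 1429 in mock cells. The groups did not overlap, and SCD had the largest value of the 27 genes, 1.24 on the log2 scale (SE 0.35, limma adjusted p = 0.210). Its 4 probe sets ranged from 0.96 to 1.24, and SCD stood at 0.75 against mock replicate 2 alone and at 1.74 against mock replicate 1 alone. Fatty acid synthase FASN had 642 and 618 against 318 and 665 in mock cells, so its mock pair alone spanned the siRNA pair. ACLY, which supplies cytosolic acetyl-CoA, had 3130.3 and 2344 against 2476 and 2448, and the carboxylase ACACA had 411 and 344 against 308 and 449.5. The siRNA arrays of both genes lay within or across the mock range.

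The elongase ELOVL5 had 1395 and 1523 with MT1-MMP siRNA against 1249 and 1273 in mock cells, a small difference without overlap (0.20, adjusted p = 0.612). ELOVL6 had 222 and 350.6 against 351.2 and 269. The desaturase FADS2 had 97.1 and 348 against 443 and 86.9, a ratio of 5.10 within the mock pair and 3.59 within the siRNA pair. NPC1, which moves cholesterol out of lysosomes, had 4699 and 1706 against 1883 and 3643 in mock cells. With pairs this far apart, FADS2 and NPC1 carry no difference between MT1-MMP siRNA and mock that exceeds their spread.

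The second comparison sets alpha3 siRNA against the same mock arrays. The genes as a group lay slightly below mock: 20 of the 27 had a log2 fold change below 0 and 7 above, with a median of -0.11, against -0.01 over all genes. With arrays scaled to a common 75th percentile, 11 of the 27 lay above 0. None of the 27 passed the threshold (lowest adjusted p = 0.852), where 0.0249% of all genes did. At an unadjusted p under 0.05, 2 of the 27 were lower (NPC1 and SCD) and 0 higher, against 3.22% of all genes lower and 2.51% higher. The arrays did not overlap for 9 of the 27 in the lower direction and 1 in the higher, against 18.0% and 16.4% of all genes. The median was -0.29 without mock replicate 1, -0.24 without alpha3 siRNA replicate 1 and -0.02 without mock replicate 2. For 17 of the 27 genes the sign turned when some array was left out.

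NPC1 had 1149.9 and 1241 with alpha3 siRNA, against 1883 and 3643 in mock cells. The alpha3 siRNA pair was tight and lay below both mock arrays, and NPC1 stood at -1.11 (SE 0.45, limma adjusted p = 0.855), at -1.58 against mock replicate 2 alone and at -0.64 against mock replicate 1 alone. SCD had 602 and 452 against 703 and 1429 (-0.90, SE 0.35, adjusted p = 0.852), with its 4 probe sets from -0.90 to -0.10. The SCD groups were apart on the brightest probe set only. On the probe set at -0.10 they overlapped, at 824 and 400 with alpha3 siRNA against 484 and 795 in mock cells. INSIG1 had 402 and 447 against 493 and 976 (-0.67, SE 0.31, adjusted p = 0.855), with its 3 probe sets from -0.67 to -0.37. Without mock replicate 2, SCD stood at -0.41 and INSIG1 at -0.20, and without mock replicate 1 at -1.40 and -1.14. For all 3 genes the distance from mock therefore varied with which mock array was used.

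INSIG2 had 153.5 and 129.9 with alpha3 siRNA, against 167 and 305 in mock cells (-0.58, adjusted p = 0.901, and -0.20 without mock replicate 2). MVK had 443 and 312 against 614 and 475 (-0.50, limma adjusted p = 0.855), and was -0.27 without alpha3 siRNA replicate 2. Its dimmer probe set stood at 0.12, with mock replicate 1 under the filter level. FDPS had 728 and 744 against 781 and 1238 (-0.40), DHCR7 had 404 and 487 against 497 and 640.3 (-0.33), and ACACA had 306 and 300.0 against 308 and 449.5 (-0.27). Without mock replicate 2 these 3 genes stood at -0.08, -0.15 and -0.02, each nearer to 0 than with both mock arrays. The second probe sets of DHCR7 (-0.11) and ACACA (-0.51) overlapped with mock. SREBF2 had 360.1 and 286 against 383 and 404 (-0.27, adjusted p = 0.902), and its second probe set stood at -0.00. SREBF1, at 97.2 and 55.9 against 80.6 and 98.6, and SCAP, at 352 and 371 against 384 and 356, overlapped with mock. Their log2 fold changes of -0.19 and -0.03 turned in sign when 1 array was left out.

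Several genes differed little between alpha3 siRNA and mock on their brightest probe set. HMGCS1 (292 and 279.5 with alpha3 siRNA), ACAT2 (743 and 583), PMVK (179.7 and 249), SQLE (968 and 799), LSS (603 and 430.2), ACLY (1983 and 2758), ELOVL5 (1214 and 1274) and FASN (422 and 575) had log2 fold changes between -0.07 and 0.09. MSMO1, which stood out with the other siRNA, had 809 and 652, both within or just below its mock range. HSD17B7 (201 and 161.5), IDI1 (847 and 708), SC5D (444 and 262), EBP (1114 and 701), ELOVL6 (301 and 472) and FADS2 (213 and 166.5) overlapped with mock as well. NSDHL, at 248 and 253, was the only 1 of the 27 whose alpha3 siRNA arrays both lay above mock (0.14, and -0.11 on its other probe set).

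**Figure D3:**
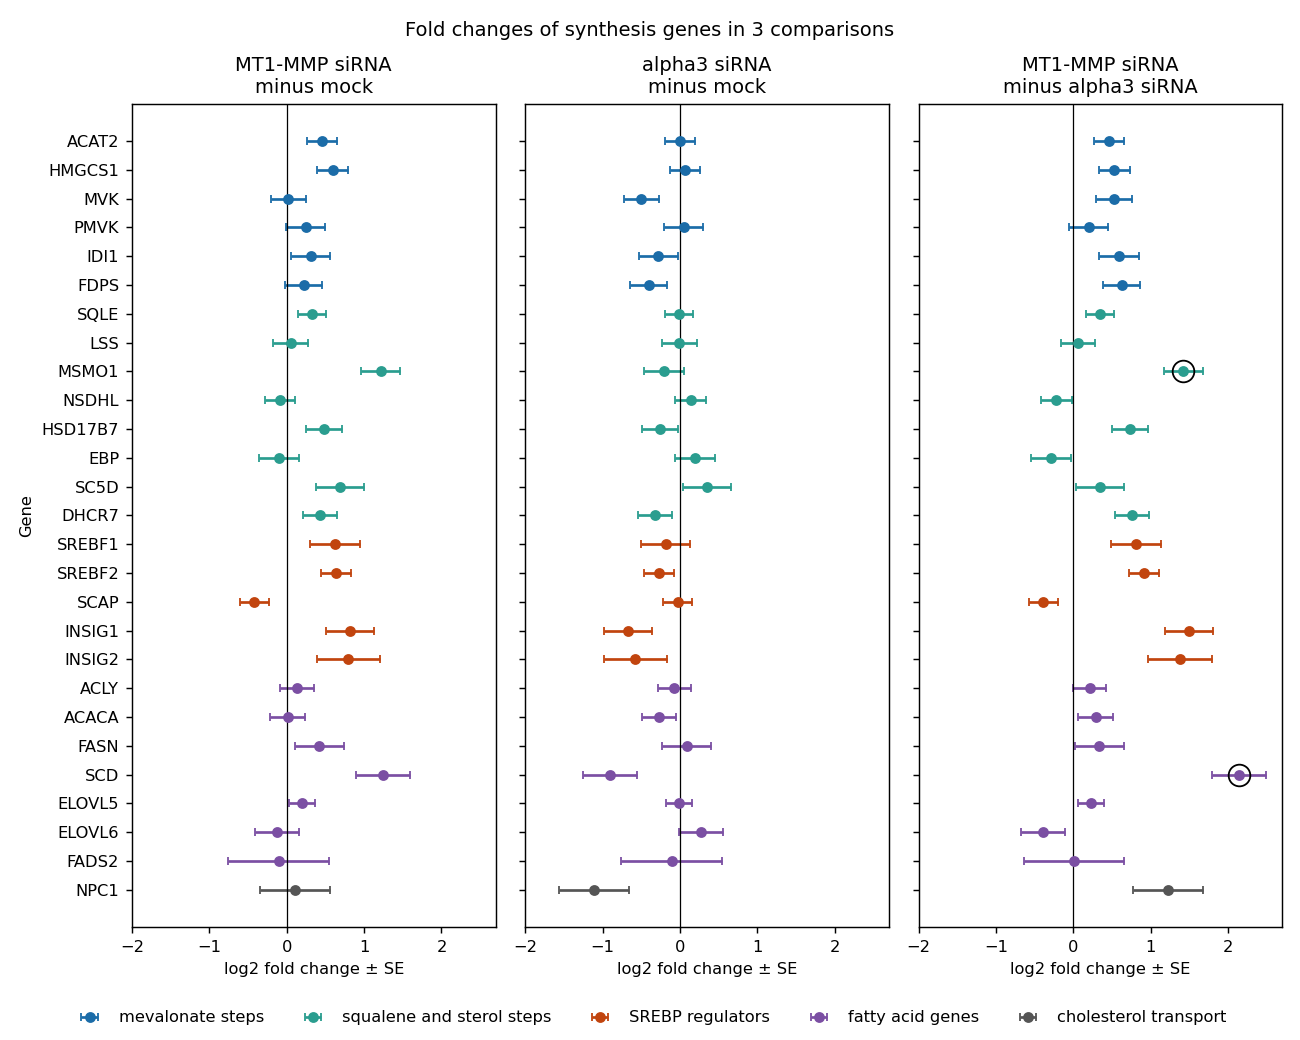
Log2 fold change ± SE of limma for the 27 genes in 3 comparisons, coloured by role; n = 2 arrays per group, and rings mark adjusted p under 0.05. MSMO1 and SCD carry the only rings, in MT1-MMP siRNA minus alpha3 siRNA.

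The third comparison sets the siRNAs against each other and does not use the mock signals, apart from their share in the estimate of the spread. SCD and MSMO1 were the genes of the list that passed the threshold, both higher with MT1-MMP siRNA. Of the 27 genes 23 lay above 0, with a median of 0.46 against 0.02 over all genes. The 2 calls stand against 1.39% of all genes called, 66 of them higher and 46 lower. At an unadjusted p under 0.05, 14 of the 27 were higher and 0 lower, against 11.7% of all genes in each direction. The arrays did not overlap for 18 of the 27 in the higher direction and 2 in the lower, against 28.0% and 25.9% of all genes.

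SCD rose 4.42-fold on the offset scale with MT1-MMP siRNA over alpha3 siRNA, at 3035 and 1924 against 602 and 452 (2.14 on the log2 scale, SE 0.35, limma adjusted p = 0.0329). Its means were 2480 ± 786 and 527 ± 106 (SD, n = 2 each), and the lowest of its 4 probe sets was at 1.22. MSMO1 rose 2.67-fold, at 2162 and 1842 against 809 and 652 (1.42, SE 0.25, adjusted p = 0.0415). Leaving out any 1 of the 4 arrays compared left SCD between 1.82 and 2.47 and MSMO1 between 1.27 and 1.57, and both lost their call each time (adjusted p from 0.0569 to 0.268). With each gene as the mean of its probe sets SCD was at 1.60 (adjusted p = 0.0582), and without a filter both missed the threshold (adjusted p = 0.0662 and 0.0714).

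The regulators did not pass, and the gaps between their groups ranged from wide to narrow. INSIG1 had 1473 and 1063 with MT1-MMP siRNA against 402 and 447 with alpha3 siRNA (1.49, SE 0.31, limma adjusted p = 0.0543), and passed without mock replicate 1 (adjusted p = 0.0461) or mock replicate 2 (adjusted p = 0.0458). SREBF2 had 663 and 602 against 360.1 and 286 (0.91, SE 0.20, adjusted p = 0.0566). INSIG2 had 669 and 257 against 153.5 and 129.9 (1.38, adjusted p = 0.106). SREBF1 had 109 and 216 against 97.2 and 55.9, a narrow gap (0.81, limma adjusted p = 0.179), and stood at 0.40 without MT1-MMP siRNA replicate 2. SCAP ran the other way, at 252 and 287 with MT1-MMP siRNA against 352 and 371 with alpha3 siRNA (-0.39, SE 0.19, adjusted p = 0.253). The siRNA groups did not overlap for any of the 5 regulators, 4 of them higher and SCAP lower, where 28.0% of all genes were higher and 25.9% lower in that way. NPC1, at 4699 and 1706 against 1149.9 and 1241 (1.22, adjusted p = 0.157), stood at 0.50 when siRNA replicate 1 was dropped and at 1.95 when replicate 2 was.

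Among the enzymes, 5 of 6 in the mevalonate steps and 4 of 8 from squalene on were higher without overlap, against 28.0% of all genes. DHCR7 stood at 0.76 (adjusted p = 0.0998) and HSD17B7 at 0.74 (adjusted p = 0.114). FDPS was at 0.62, IDI1 at 0.59, HMGCS1 at 0.53 and MVK at 0.53, with adjusted p-values from 0.162 to 0.211. Of the fatty acid genes other than SCD, FASN (0.33), ACACA (0.29) and ELOVL5 (0.22) did not overlap, and ACLY, ELOVL6 and FADS2 did. NSDHL was lower without overlap (-0.22), and EBP lay at -0.29 with overlap. Neither held across probe sets: the second of NSDHL stood at 0.06 and another of EBP at 0.13, and EBP stood at 0.03 without alpha3 siRNA replicate 1.

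**Figure D4:**
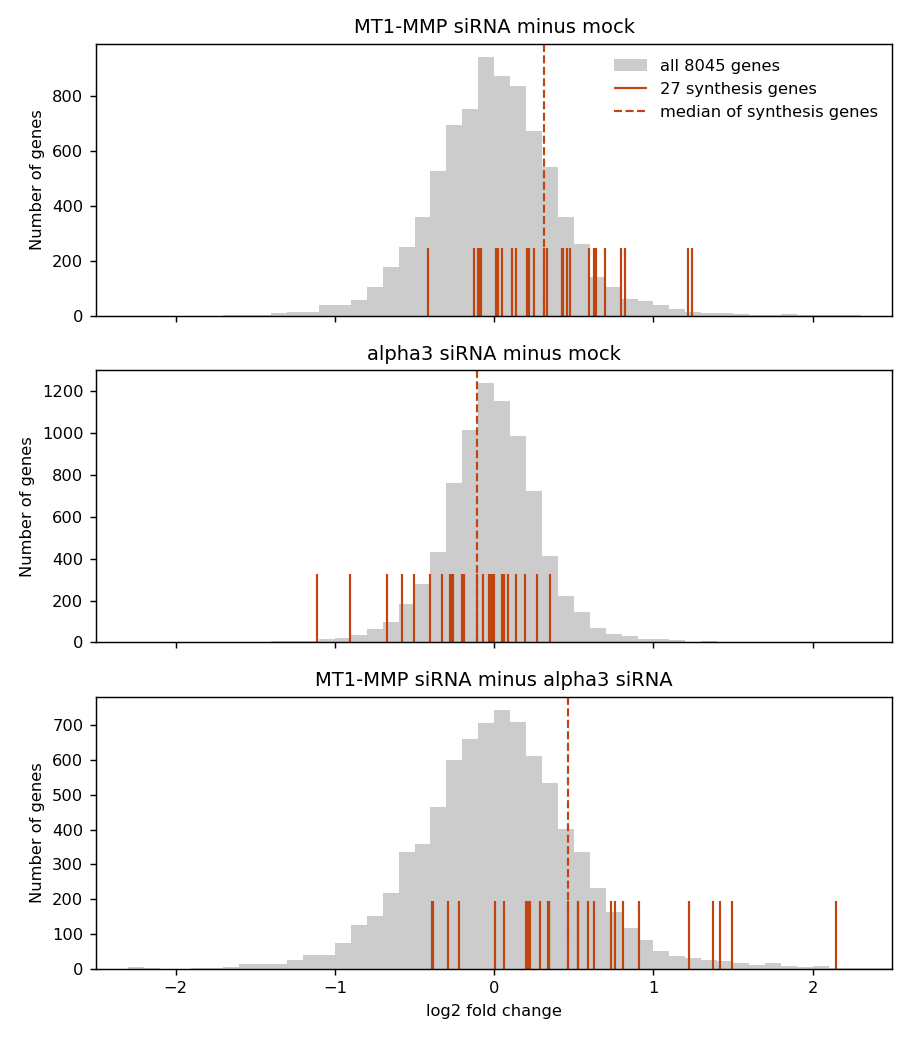
Histograms of log2 fold changes over all 8045 genes (grey) in the 3 comparisons, with the 27 synthesis genes as lines and their median dashed; the few genes beyond 2.5 in either direction are outside the axis. The median of the 27 is at 0.31, -0.11 and 0.46.

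Probe sets of the same gene gave a further view of how far a value can be relied on. Of the 48 probe sets of these genes above the filter, 36 lay above 0 with MT1-MMP siRNA against mock, with a median of 0.26, and 38 lay below 0 with alpha3 siRNA, with a median of -0.16. Of the 15 genes with several such probe sets, 12 had the same sign on all of them for MT1-MMP siRNA against mock, the exceptions being ACACA, ACLY and SQLE. For alpha3 siRNA against mock 9 of 15 did, and EBP, ELOVL6, HMGCS1, IDI1, MVK and NSDHL did not. Between the siRNAs 12 of 15 did, and ACLY, EBP and NSDHL did not. Probe sets of a gene share the same RNA and are no replicates of the condition.

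**Figure D5:**
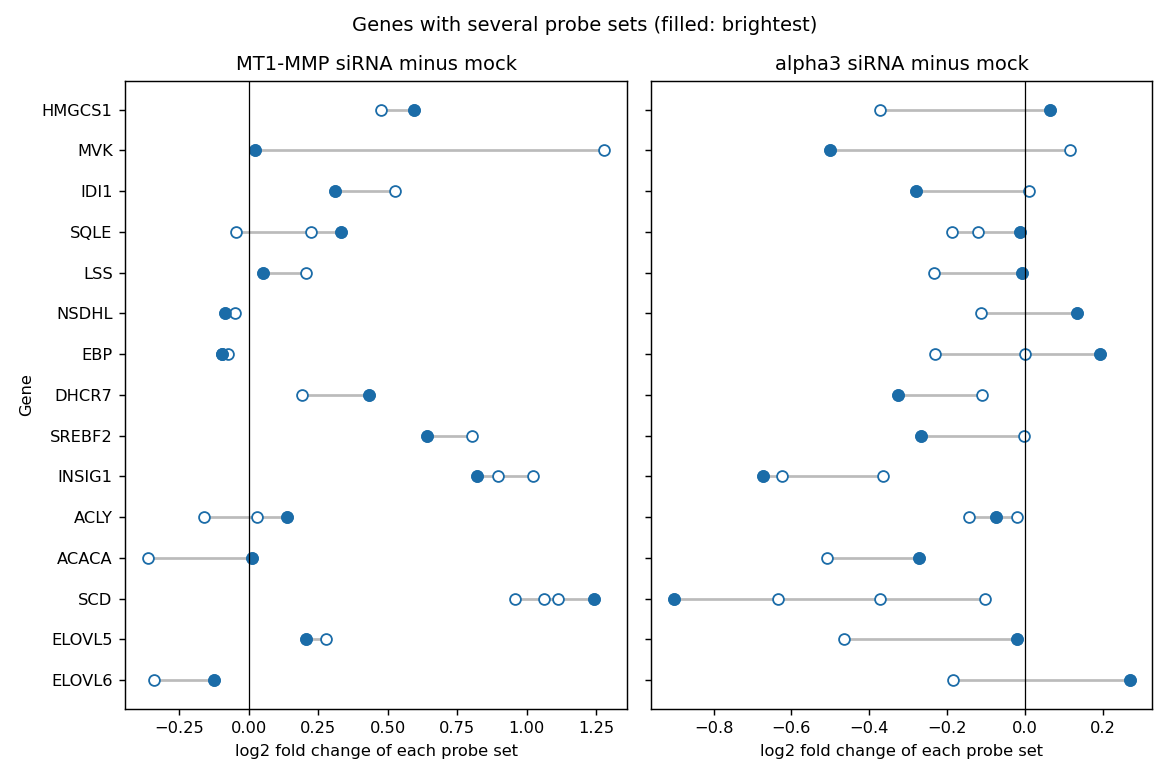
Log2 fold change of every probe set above the filter for the 15 genes with several (filled: brightest), for each siRNA minus mock. The probe sets of SCD and INSIG1 share a side of 0 in both panels, and those of MVK are at 0.02 and 1.28 with MT1-MMP siRNA. The MVK probe set at 1.28 has mock replicate 1 under the filter level.

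The wider pathway was described through 59 further genes, of which 45 had a singly named probe set and 39 passed the filter. None of the 39 passed the threshold in any of the 3 comparisons. With MT1-MMP siRNA against mock, 16 (41.0%) were higher and 7 (17.9%) lower without overlap, against 24.6% and 25.3% of all genes. Of the 39, the 13 genes of sterol efflux, storage and LXR signalling, lipoprotein receptors included, had a median of 0.40. They were mixed, with 9 above 0 and 4 below. RXRA lay below 0 without overlap, and SOAT1, MYLIP and ABCG1 lay below 0 with overlap. ABCA1 stood at 0.49 with overlap and NR1H3 at 0.40 without. The 14 genes of other synthesis and SREBP processing had a median of 0.09, and the 12 of other lipid synthesis a median of -0.07. The lipoprotein receptor VLDLR had 399 and 334 on the MT1-MMP siRNA arrays, 220 and 126 on the alpha3 siRNA arrays, and 177 and 226 in mock cells. LIPA, the lysosomal acid lipase that frees cholesterol from its esters, had 982 and 940.2 on the MT1-MMP siRNA arrays, 629 and 497 on the alpha3 siRNA arrays, and 536 and 764 in mock cells. For both genes the MT1-MMP siRNA arrays lay above the other 4, as they did for 11 of the 27 synthesis genes (40.7%) and for 16.3% of all genes.

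The lipoprotein receptor LRP1 was dim, at 115 and 82.1 on the MT1-MMP siRNA arrays, 28.0 and 18.4 on the alpha3 siRNA arrays, and 39.6 and 74.4 in mock cells. Both alpha3 siRNA arrays and 1 mock array lay under the filter level of 47.5, so no size is given for its differences. NPC2, the soluble partner of NPC1 in lysosomes, had 1802 and 1156 on the MT1-MMP siRNA arrays, 1264 and 761 on the alpha3 siRNA arrays, and 893 and 1026 in mock cells. The largest of the 7 that were lower with MT1-MMP siRNA without overlap were HACD3, a dehydratase of fatty acid elongation (429.5 and 422, against 683 and 655 in mock cells), LBR, which carries sterol C14 reductase activity (652 and 662, against 951 and 829.9), RXRA and ACSL5. Their log2 fold changes were -0.62, -0.42, -0.43 and -0.29, with limma adjusted p-values from 0.213 to 0.650. ACSL5 was dim, at 46.2 and 56.0 with MT1-MMP siRNA against 81.8 and 58.1 in mock cells, with 1 array under the filter level.

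With alpha3 siRNA against mock, 5 of the 39 (12.8%) were higher and 8 (20.5%) lower without overlap, close to the 16.4% and 18.0% of all genes, so the values below are a description only. Among the 8 were LRP1, under the filter level on both alpha3 siRNA arrays, GGPS1 (-0.46), HSD17B12 (-0.45) and ACACB (-0.43). ACACB was dim, at 31.8 and 49.9 with alpha3 siRNA against 62.9 and 67.4 in mock cells, with 1 array under the filter level. MBTPS1, the Golgi protease that makes the first cut in the SREBPs, had the largest among those 5, at 523 and 566.5 against 457 and 399.7 in mock cells (0.33, adjusted p = 0.875). It was also higher with MT1-MMP siRNA, at 568.5 and 629.7. SCARB1 (0.30), TMEM97 (0.23) and POR (0.23) followed.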

How the data were processed

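Gene expression had been measured on 6 arrays of HT1080 cells, 2 in each of the MT1-MMP siRNA, alpha3 siRNA and mock groups, mapped through the sample titles. The values the authors deposited are an intensity per probe set on a linear scale. Which software and background method made them is not given in the sources used here. Averaging the central 96% of probe sets gave 250.1 on each array, a common level set before deposit, and no further normalization was applied. Arrays of a pair held equal values on only 22 to 78 probe sets, and each was taken as 1 replicate.

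Gene symbols came from the platform annotation. The 19065 with 1 symbol were used, and the 1043 with several, the unnamed ones and the 68 array controls were left out. All 56 probe sets of the list matched a current gene record with the same symbol. After raising values below 1 to 1, log2(value + 32) was computed. The dim-signal filter kept probe sets whose mean exceeded the 40th percentile (6.31 on that log2 scale, a signal of 47.5), and the brightest probe set of a gene was used. limma 3.58.1 in R 4.3.3 fitted 3 group means (lmFit, then eBayes with an intensity trend, 3 residual and 5.35 prior degrees of freedom), with Benjamini-Hochberg adjustment over 8045 genes. The fit was tested on simulated data. Figures were drawn with matplotlib 3.10.9.

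The genes, the lists and the tests were chosen with earlier results of these data known. Genes named with a fold change are those called, the 8 largest per comparison whose arrays did not overlap, and the 5 SREBP regulators. For the further pathway genes they are up to 4 each way. The other members are given by their signals, some with a fold change. Other normalizations, offsets, filters, probe set rules, variance models and array subsets were tried. When an array was left out, the genes kept were those of all 6 arrays. Over all genes same-numbered arrays did not deviate together (correlations of deviations of 0.13, -0.18 and -0.18), so the numbers were not used as pairs. Over the genes of the list the correlation was -0.71 between MT1-MMP siRNA and mock. It was -0.12 between the siRNA groups and 0.06 between alpha3 siRNA and mock. In the list, same-numbered MT1-MMP siRNA and mock arrays thus tended to deviate in opposite directions.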

Additional observations from a re-analysis of the deposited data

How the results depend on the processing

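The median over the 27 genes kept its sign in all 3 comparisons under every alternative run. Leaving out 1 array moved it between 0.22 and 0.54 for MT1-MMP siRNA against mock, between -0.29 and -0.024 for alpha3 siRNA against mock, and between 0.43 and 0.61 for the siRNAs against each other, where no filter gave 0.35. No gene of the list was called against mock under any alternative. Between the siRNAs the list had 2 calls, against 1 with an offset of 1 (SCD), 1 without the trend (SCD), 0 without a filter, 4 with a filter at the 60th percentile (SCD, MSMO1, INSIG1 and SREBF2), 4 probe sets with every probe set on its own (of SCD, MSMO1 and INSIG1), and 0 to 3 without 1 array. Over all genes, MT1-MMP siRNA against mock had 0 calls by limma at an adjusted p under 0.05 (544 higher and 616 lower at an unadjusted one), and 1 call under quantile normalization, 3 with an offset of 1, 6 with an offset of 100, 2 with the mean of probe sets, 2 with every probe set, 7 with the 2 groups alone, and 0 to 8 without 1 array. Alpha3 siRNA against mock had 2, against 1 under quantile normalization, 0 with an offset of 1, 1 with an offset of 100, 1 without a filter, 0 with the 60th percentile, 1 with every probe set, 1 with the 2 groups alone, and 0 to 9 without 1 array. The siRNAs against each other had 112, against 74 with an offset of 1, 22 without a filter, 178 with the 60th percentile, 72 without the trend, and 0 to 83 without 1 array. The replicate block gave 11 calls for MT1-MMP siRNA and 4 for alpha3 siRNA against mock, and left the 2 calls of the list as they were. With 1 array left out, alpha3 siRNA against mock ranged for SREBF1 between -0.46 and 0.091 and for SCAP between -0.081 and 0.019, so both turned in sign. Fewer arrays also leave fewer residual degrees of freedom, and the cause of the other changes was not tested.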
